A study of Mus musculus with 12 samples.

Results

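The muscle microRNAs (myomiRs) miR-1, miR-133, miR-206, miR-208, miR-486 and miR-499 were followed in quadriceps muscle of cofilin-2 null mice (Cfl2-KO, KO) and wild-type mice (WT). They were taken by name from the table of normalized intensities: every entry called miR-1, miR-1a, miR-133a, miR-133b, miR-206, miR-208a, miR-208b, miR-486 or miR-499, with or without an arm suffix, and with no star, the mark that miRBase then gave to the passenger strand of a hairpin. This gave 8 of the 1096 miRNA names in the table, namely mmu-miR-1a, mmu-miR-133a, mmu-miR-133b, mmu-miR-206, mmu-miR-208a-3p, mmu-miR-208a-5p, mmu-miR-208b and mmu-miR-499. miR-486 without a star was not analysed here. Of the 8, 4 had a mean intensity of at least 32 over all samples and entered the test with 366 other miRNAs, and the other 4 did not.

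The samples came from 6 WT and 6 KO pups of the C57Bl/6 strain at postnatal day 7, with 1 sample per mouse, called WT1 to WT6 and KO1 to KO6 here. The methods describe littermate pairs and give no driver or tissue restriction for the null allele. The miRNA content of total RNA was read on arrays designed from mouse miRBase version 17, where a brighter spot means more of the miRNA it captures. The labels give Cy5 as the dye of every WT sample and Cy3 as that of every KO sample, so dye and genotype cannot be told apart. Whether a WT and a KO sample shared an array is not given in the sources used here, and each sample was treated as separate.

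MyomiRs are short RNAs made mainly in skeletal and cardiac muscle under the control of myogenic transcription factors, and they repress messenger RNAs that pair with their seed, the bases 2 to 8. miR-1 and miR-133 are transcribed together and are known for opposing roles, miR-1 in promoting differentiation and miR-133 in promoting proliferation of myoblasts. miR-206, which belongs to the seed family of miR-1, is enriched in skeletal muscle and is known in satellite cell differentiation and regeneration, while miR-208a, miR-208b and miR-499 are hosted by myosin heavy chain genes and act in the choice between fast and slow fibre programmes.

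RefSeq mature sequences (GRCm38.p6) were found for 6 of the 8 names and are shown to make plain which of these miRNAs share a target-recognising seed, given in capitals. mmu-miR-1a and mmu-miR-133a were the names without an entry. Written 5′ to 3′, the skeletal muscle pair was:
miR-206: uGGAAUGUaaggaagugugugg
miR-133b: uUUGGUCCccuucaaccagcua
miR-206 lay at chr1:20679055-20679076 and miR-133b at chr1:20682834-20682855, both on the plus strand and both inside the non-coding gene Lincmd1, with 3686 bases between their hairpins. Their seeds had 1 of 7 bases in common. The myosin-hosted miRNAs were:
miR-208a-3p: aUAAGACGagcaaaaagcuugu
miR-208b: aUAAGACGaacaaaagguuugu
miR-499: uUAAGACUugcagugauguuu
miR-208a-5p: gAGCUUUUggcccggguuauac
miR-208a-3p (chr14:54949072-54949093, minus strand) and miR-208b (chr14:54975710-54975731, minus strand) had the same seed and differed at 3 of 22 bases. They lay within Myh6 and Myh7, which encode the cardiac and the slow myosin heavy chain. miR-499 (chr2:155622893-155622913, plus strand), within Myh7b, shared 6 of 7 seed bases with both. miR-208a-5p (chr14:54949107-54949128, minus strand) is the other arm of the miR-208a hairpin. Its seed was also that of miR-208b-5p and miR-6415, and of none of the other sequences shown. Of the remaining loci in the annotation, Mir1a-1 and Mir133a-2 lay in the same host transcript, Mir1a-1hg. Mir1a-2 and Mir133a-1 lay within Mir133a-1hg and also within the bounds of Mib1. Mir486 lay within the ankyrin gene Ank1.

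The intensities summed to between 594311 and 636136 per sample. KO1 stood apart: its mean correlation with the other KO samples over the 370 tested miRNAs was 0.848, against 0.907 to 0.945 for KO2 to KO6 and 0.949 to 0.970 in WT. Results are therefore given with and without KO1 where it changed them. Of the markers of the labelled tissue, miR-1a, miR-206, miR-133a and miR-133b were bright, and the other 4 names were at 0 to 30. The 8 muscle miRNAs held 13.2% to 15.0% of the summed intensity in WT and 12.9% to 16.6% in KO, most of it in miR-1a, miR-206, miR-133a and miR-133b, whereas miR-122 of liver and miR-124 and miR-9 of neurons summed to an intensity of 8 to 30 in WT and 9 to 42 in KO. Brightness also depends on the probe, so these shares are of signal and not of molecules, and the level of a miRNA was compared only with itself in other mice.

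None of the 4 tested muscle miRNAs differed between KO and WT past the threshold of 0.05, adjusted or unadjusted, with limma. Among all 370 tested miRNAs, 19.5% passed unadjusted and 1.35% passed with Benjamini-Hochberg adjustment. The fitted changes, as log2 KO minus WT, were 0.17 for miR-1a, -0.08 for miR-206, -0.35 for miR-133a and -0.38 for miR-133b. Of the 4, 3 were lower in KO with a median of -0.22, where 210 of all 370 were lower with a median of -0.08. Without KO1 again 0 of the 4 passed, adjusted or unadjusted, where 13.2% of all 370 passed adjusted. In whole quadriceps, fewer cells of a type and less RNA per cell cannot be told apart.

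**Figure D1:**
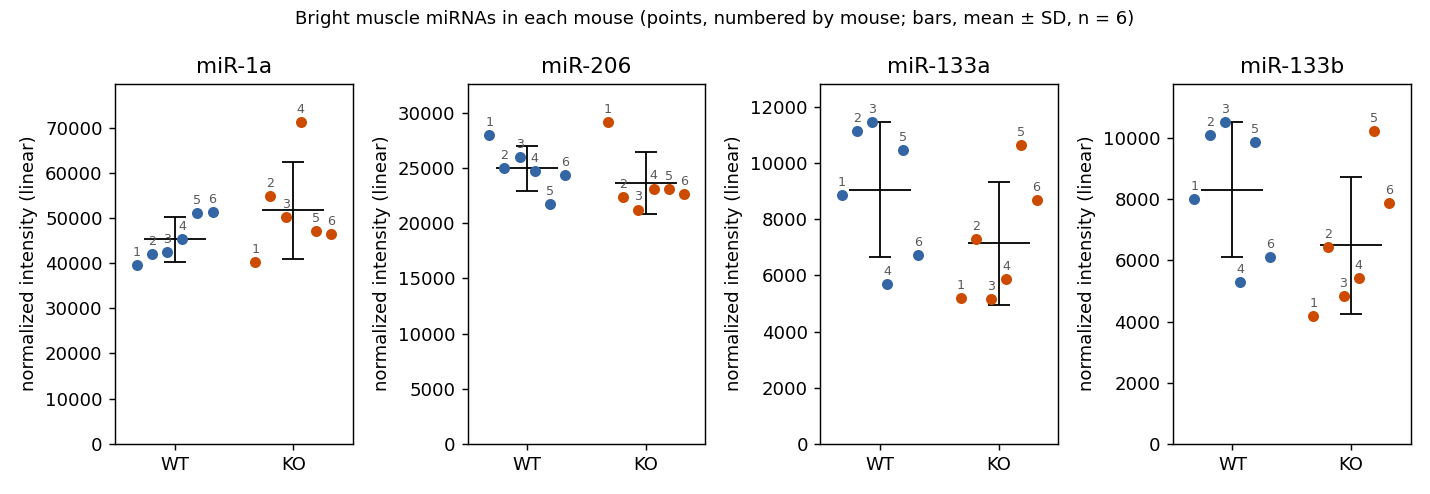
Normalized linear intensity (vertical axes, each from 0) of miR-1a, miR-206, miR-133a and miR-133b in the 6 WT (blue) and 6 KO (orange) mice; points are single mice with their number, bars the mean ± SD. The groups overlap in every panel; KO4 is highest for miR-1a, KO1 is highest for miR-206, and the miR-133a and miR-133b panels place the mice almost alike.

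miR-1a, the miRNA best known for driving muscle differentiation, had intensities of 39535, 41954, 42439, 45235, 51169 and 51374 in WT1 to WT6. In KO1 to KO6 it had 40290, 54863, 50112, 71199, 47145 and 46440. KO2 and KO4 lay above every WT mouse, and the other 4 KO mice lay inside the WT range. The mean was 45284 ± 4979 in WT and 51675 ± 10690 in KO (SD, n = 6 each). The KO/WT ratio from the limma fit was 1.13 (95% interval 0.859 to 1.48, adjusted p = 0.685), an interval that includes a modest loss as well as a gain. The log2 change of 0.17 (SE 0.18) was 0.08 without KO4 and 0.24 without KO1. In KO4, miR-1a alone held 11.2% of the summed intensity of its sample, against 6.60% to 8.72% in the other 11 samples.

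miR-206, whose known role is in regeneration and in young fibres, differed little between mice. Its intensities were 28009, 25024, 26028, 24784, 21732 and 24371 in WT1 to WT6 and 29194, 22385, 21266, 23172, 23167 and 22683 in KO1 to KO6. KO1 lay above and KO3 below every WT mouse, and KO2, KO4, KO5 and KO6 lay close together within the WT range. The highest of the 12 values was 1.37 times the lowest. The mean was 24991 ± 2061 in WT and 23645 ± 2808 in KO (SD, n = 6 each), and the KO/WT ratio was 0.944 (95% interval 0.743 to 1.20, limma adjusted p = 0.855). The log2 change of -0.08 was -0.15 without KO1 and -0.05 without WT1. Its SD among mice of a genotype, 0.14 on the log2 scale, was the lowest of the 370 miRNAs tested in the deposited intensities, a rank given as a description. The median SD was 0.55 over the 370 and 0.26 over the 36 with a mean intensity of at least 4000.

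miR-133a and miR-133b, known as repressors of serum response factor (SRF), differ in their mature forms at the 3′ end. miR-133a had intensities of 8866, 11161, 11466, 5684, 10459 and 6726 in WT1 to WT6, and of 5210, 7290, 5151, 5882, 10659 and 8691 in KO1 to KO6. miR-133b had 8006, 10106, 10526, 5297, 9869 and 6118 in WT1 to WT6, and 4180, 6447, 4837, 5427, 10229 and 7872 in KO1 to KO6. For both, WT4 and WT6 were low among WT mice, KO5 was high among KO mice, and KO1 and KO3 lay below every WT mouse. The mean of miR-133a was 9060 ± 2410 in WT and 7147 ± 2194 in KO (SD, n = 6 each), a KO/WT ratio of 0.786 (95% interval 0.538 to 1.15, limma adjusted p = 0.493). The mean of miR-133b was 8320 ± 2215 in WT and 6499 ± 2240 in KO (SD, n = 6 each), a ratio of 0.770 (95% interval 0.519 to 1.14, limma adjusted p = 0.476). Both intervals reach from a large reduction to a small gain. The mice of a genotype differed more in these than in miR-206: the SD on the log2 scale was 0.42 for miR-133a and 0.45 for miR-133b, and WT values alone spanned 2.02-fold and 1.99-fold.

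**Figure D2:**
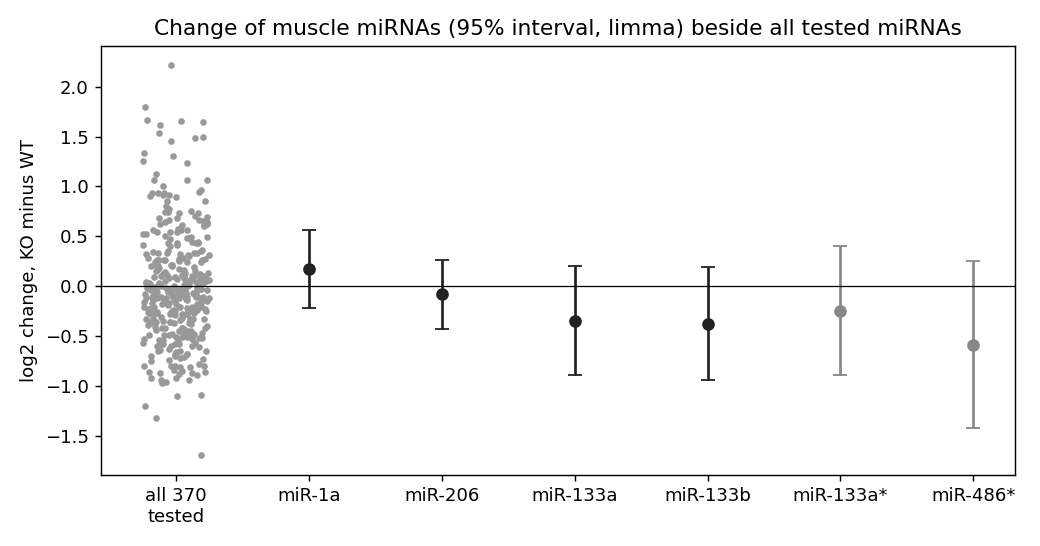
Log2 change, KO minus WT (vertical axis), of the 4 tested muscle miRNAs (black) and of 2 passenger strands (grey), with 95% intervals from limma, n = 6 per group; small points are all 370 tested miRNAs, spread sideways for legibility. Every interval drawn includes 0, and it is narrowest for miR-206 and widest for miR-486*.

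The myosin-hosted miR-208a-3p, miR-208a-5p, miR-208b and miR-499 were all near the bottom of the scale. Sample medians over all 1096 names were 12 to 14, and none of the 48 values of these 4 names reached 32. miR-208a-3p, hosted by the cardiac myosin gene, was at 0 to 6 in WT and 1 to 5 in KO, and miR-208a-5p at 4 to 13 in WT and 6 to 12 in KO. miR-208b, hosted by the slow myosin gene, was at 1 to 8 in WT and 1 to 9 in KO. miR-499 was at 14, 9, 13, 10, 29 and 8 in WT1 to WT6 and 9, 3, 7, 7, 8 and 30 in KO1 to KO6, so that WT5 and KO6 were alone in exceeding 14. The sources used here give no detection limit, and at this brightness a difference between the genotypes was not detectable. In a fit with no filter on low values, the unadjusted limma p was 0.899 for miR-208a-3p, 0.729 for miR-208a-5p, 0.793 for miR-208b and 0.223 for miR-499.

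**Figure D3:**
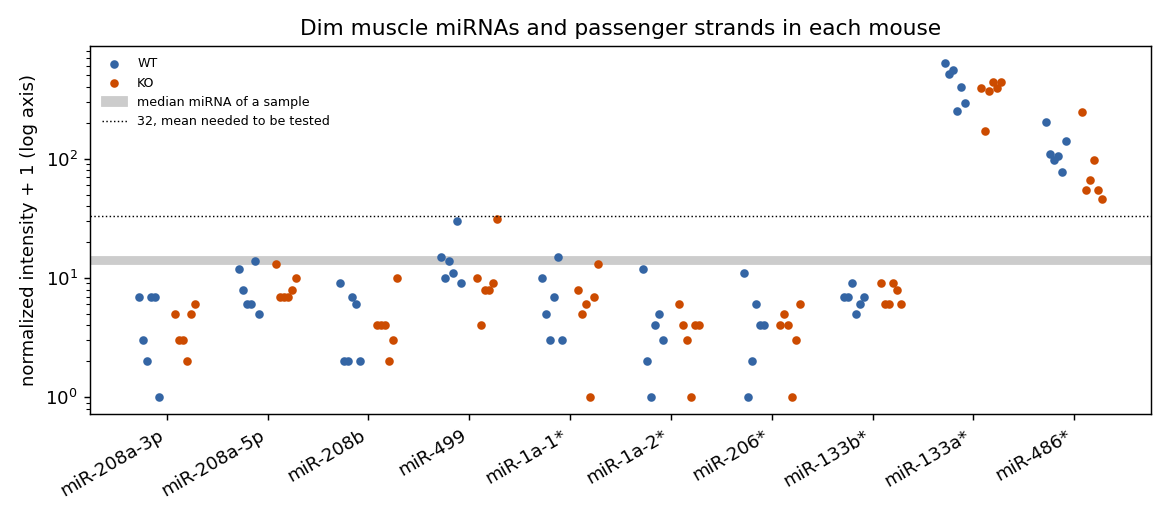
Normalized intensity plus 1 (vertical log axis) of the 4 dim muscle miRNAs and 6 passenger strands in each WT (blue) and KO (orange) mouse; the grey band spans the median miRNA of the samples and the dotted line marks an intensity of 32. Only miR-133a* and miR-486* lie above the line.

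The passenger strands are the partner arms that are mostly degraded when a hairpin is processed, and those of miR-1a, miR-206 and miR-133b were dim although the mature miRNAs were bright. miR-1a-1*, miR-1a-2*, miR-206*, miR-133b*, miR-208b* and miR-499* stayed at 21 or below in every sample. miR-133a* was at 639, 509, 559, 249, 398 and 290 in WT1 to WT6 and at 390, 170, 369, 442, 395 and 440 in KO1 to KO6. Its KO mice lay inside the WT range apart from KO2, which was below it, and the log2 change was -0.25 (SE 0.30, limma adjusted p = 0.720), or -0.04 without KO2. After the group means were subtracted, miR-133a* and miR-133a correlated with r = 0.394 over the 12 samples, given as a description.

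miR-486* was the strand of miR-486, a miRNA made in muscle and in erythroid cells, that was analysed here. Its intensities were 202, 109, 96, 105, 77 and 139 in WT1 to WT6 and 248, 54, 66, 96, 54 and 45 in KO1 to KO6. KO2, KO3, KO5 and KO6 lay below every WT mouse, KO4 lay within the WT range, and KO1 lay above it. With all samples the log2 change was -0.59 (SE 0.39, limma unadjusted p = 0.153, adjusted p = 0.447), and without KO1 it was -0.93 with an adjusted p of 0.0387. Without KO1, 49 of the 370 tested miRNAs passed the adjusted threshold. With all 12 samples and array weights, where KO1 had the lowest weight (0.156), miR-486* also passed (log2 change -0.74, limma adjusted p = 0.0256). So did 115 of the 370 in all. The call therefore rests on how KO1 and the other samples are weighted. The erythroid miR-451 spanned 43 to 417 in WT and 16 to 318 in KO (log2 change -0.94, SE 0.69, adjusted p = 0.497), and its partner miR-144 was at 0 to 6 in all samples. Across the 12 samples, with group means subtracted, miR-486* and miR-451 had r = 0.246, or -0.24 without KO1. The part of erythroid cells in the level of miR-486* was not tested. The gene of miR-3107 lies within 10 kb of Mir486. The mature sequences of these genes were not compared here, so miR-3107 cannot be read as a measurement separate from miR-486. miR-3107 was at 1019 ± 288 in WT and 826 ± 270 in KO (SD, n = 6 each). Its log2 change was -0.32 (limma adjusted p = 0.554), and that of miR-3107* was -0.27 (limma adjusted p = 0.710).

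The 4 bright muscle miRNAs did not vary together as 1 block across mice. miR-133a and miR-133b gave nearly the same ranking of the 12 mice, with r = 0.991 (95% interval 0.969 to 0.998) and rho = 0.986, at the smallest p that the permutation test can give (1e-05, adjusted over 6 pairs 6e-05). The relation was as close within WT (r = 0.998) and within KO (r = 0.986), and without the 2 samples farthest from the median (r = 0.996). Because the mature forms are nearly identical and the sources used here do not give the specificity of the probes, the pair cannot be read as independent measurements. Within each sample, miR-133a minus miR-133b on the log2 scale was 0.12 ± 0.03 in WT and 0.15 ± 0.09 in KO (SD, n = 6 each), with KO1 at 0.32. The genotypes differed by 0.03 in this quantity (exact permutation p = 0.606, the same after adjustment over 2 differences), and by -0.01 without KO1.

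The neighbours miR-206 and miR-133b, which lie in the same host transcript, were not shown to move together. Over the 12 mice their r was -0.11 (95% interval -0.64 to 0.50, permutation p adjusted over 6 pairs = 0.876). Without KO1 it was 0.28 (95% interval -0.38 to 0.76), so a positive relation is not excluded. In KO1 miR-206 had its highest value and miR-133b its lowest. miR-206 minus miR-133b on the log2 scale differed between the genotypes by 0.29, from a mean of 1.63 ± 0.44 in WT to 1.92 ± 0.56 in KO (SD, n = 6 each). Its exact permutation p was 0.338, or 0.606 after adjustment over 2 differences, and the difference was 0.12 without KO1. The probes differ in brightness, so the size of each mean has no meaning alone and its change between mice was compared.

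miR-1a and miR-206, the members of a common seed family, were negatively related among mice. Pearson's r over the 12 mice was -0.64 (95% interval -0.89 to -0.11, permutation p = 0.0232, adjusted over 6 pairs 0.0697) and Spearman's rho was -0.73 (permutation p = 0.00872, adjusted 0.0262). Thus the rank measure passed the threshold and the linear measure did not. The rank call was lost when the group means were subtracted (rho = -0.55, permutation p adjusted 0.225; r = -0.60, adjusted 0.276), without KO1 (rho = -0.66, adjusted 0.0921) and after cyclic loess (rho = -0.62, adjusted 0.114). In WT alone r was -0.85 (exact permutation p = 0.0208, adjusted 0.0625, n = 6) and in KO alone it was -0.50 (exact permutation p = 0.281, n = 6). It was -0.80 (permutation p adjusted 0.0132) without the 2 mice farthest from the median of miR-1a, and -0.59 (permutation p adjusted 0.148) without KO1. The summed intensities of the samples lay close together. With each sample rescaled on the other miRNAs r was -0.57 (permutation p adjusted 0.155; rho = -0.78, adjusted 0.0133), and after cyclic loess it was -0.54 (adjusted 0.205). miR-1a and miR-133a, which share their host transcripts, had r = -0.31 (95% interval -0.75 to 0.32, permutation p adjusted 0.687), and -0.52 without KO1 (adjusted 0.148). miR-1a with miR-133b had r = -0.25, or -0.51 without KO1, and miR-206 with miR-133a had r = -0.02, or 0.31 without KO1, and neither passed either way.

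**Figure D4:**
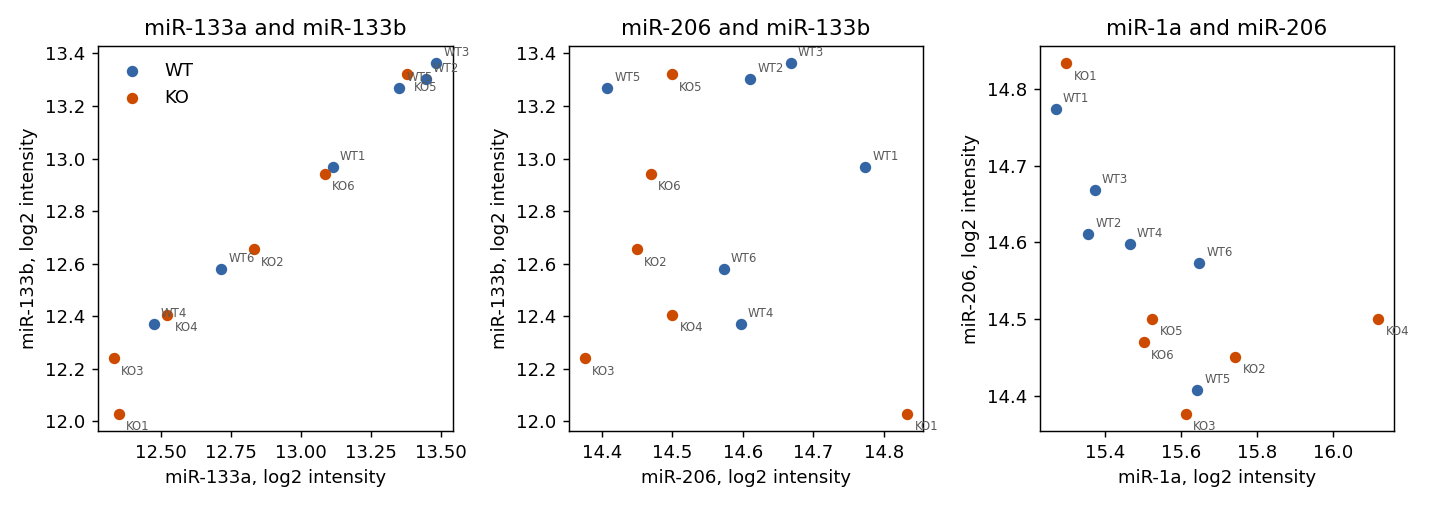
Log2 normalized intensity of miR-133a against miR-133b, miR-206 against miR-133b, and miR-1a against miR-206 in the 12 mice (WT blue, KO orange, labelled). The first panel is close to a straight line (r = 0.991), the second shows no line and KO1 in the lower right corner, and the third falls from KO1 and WT1 at the upper left (r = -0.64).

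The tested miRNAs whose pattern was most like that of each member were named by Pearson's r of log2 intensity over the 12 samples after the group means were subtracted, as a description. For miR-133a these were miR-133b (0.990), miR-127 (0.951) and miR-434-3p (0.846), and for miR-133b they were miR-133a, miR-127 (0.926) and miR-215 (0.832). miR-127 and miR-434 come from the imprinted Dlk1-Dio3 locus. For miR-206 they were miR-222 (0.889, or 0.707 without KO1), miR-676 (0.883, or 0.770) and miR-151-5p (0.879, or 0.673). For miR-1a they were miR-30a (0.848), miR-335-5p (0.773) and miR-182 (0.768). No name appeared for both a miR-133 and miR-1a or miR-206.

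Other miRNAs with a known part in myoblast proliferation or differentiation were set beside the muscle miRNAs, and the difference between the lists was not tested. Of 23 listed, 19 were tested, 7 were lower in KO and 0 were higher at an unadjusted limma p under the threshold, and 12 did not pass. Among all 370, 9.73% were lower by the same criterion. The median log2 change of the 19 was -0.45, where that of all 370 was -0.08. miR-181b, which acts on differentiation of myoblasts, was at 382 ± 101 in WT and at 153 ± 40.0 in KO (SD, n = 6 each). Its log2 change was -1.32 (SE 0.23, limma adjusted p = 0.0113), and it alone of the 19 passed the adjusted threshold. All 6 KO mice lay below all WT mice for miR-181b and also for miR-26a (log2 change -0.33, limma unadjusted p = 0.0697). By qRT-PCR, the study reports a trend of miR-181b in the array's direction that was not statistically significant. The other members past the unadjusted threshold were miR-27a (-0.89) and miR-27b (-0.87), which act on Pax3 in muscle progenitors, miR-181a (-0.71), miR-503 (-0.51), miR-128 (-0.49) and miR-125b-5p (-0.48). Without KO1, 7 of the 17 then tested were lower and 0 higher, with miR-222 in place of miR-503, where 15.7% of all 370 were lower unadjusted. Then 2 of the 17 passed the adjusted threshold, close to the 13.2% of all 370 that did. The list was drawn up with results of these samples known, so its count is not independent evidence of a direction.

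Markers of other cells in the muscle were set beside these values, with 9.73% of all 370 miRNAs lower unadjusted as background, or 15.7% without KO1. Of the endothelial markers miR-126-3p and miR-126-5p, 1 was tested: miR-126-3p was lower in KO (log2 change -1.20, SE 0.31, limma adjusted p = 0.0615), past the unadjusted threshold and not the adjusted one, which it passed without KO1. The summed level was 2233 to 4745 in WT and 765 to 2709 in KO. The smooth muscle and pericyte markers miR-143 and miR-145 summed to 3555 to 4909 in WT and 3241 to 6241 in KO, with 0 of 2 past the unadjusted threshold, or 1 of 2 (miR-145, lower) without KO1. miR-199a-3p, miR-199a-5p and miR-214 of fibroblasts summed to 16074 to 21782 in WT and 14641 to 19988 in KO, with 0 of 3 past it. The 4 leukocyte markers, miR-142-3p, miR-142-5p, miR-223 and miR-150, summed to 31 to 62 in WT and 33 to 63 in KO and were too dim to be tested. Among mice, with group means subtracted and as a description, miR-133a followed miR-199a-3p with r = 0.749 (0.720 without KO1). With miR-126-3p its r was 0.427 (0.620 without KO1). miR-206 had r = 0.753 with miR-143 (0.420 without KO1) and 0.575 with miR-214 (0.267 without KO1). The part of these cells in the levels of the muscle miRNAs was not tested.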

How the data were processed

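Total RNA of quadriceps from 12 mice was profiled on miRNA arrays. The authors deposited normalized intensities, linear and in whole numbers, for 1096 miRNA names per sample. The normalization, background correction and averaging of spots, and the test behind the study's miRNA p-values, are not given in the sources used here. Groups and numbers came from the sample labels, and all 12 samples were used. An array intensity has no read depth, and the number of arrays limits the precision. Each sample was a separate mouse, per the methods.

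After a floor of 1, intensities were put on the log2 scale. Names averaging 32 or more over the 12 samples, 370 in number, were fitted with limma 3.58.1 (lmFit and eBayes, two-sided) in R 4.3.3, with Benjamini-Hochberg adjustment over all of them. The methods define altered miRNAs by an unadjusted threshold of 0.05, so both counts were kept. Within-sample differences used exact permutation tests over all 924 assignments of 6 of 12 samples. Correlations were tested two-sided with 100000 permutations of log2 intensities, or all 720 orders with 6 samples, and were adjusted over 6 pairs, with intervals by Fisher's z. The fit was tested on simulated data. Python 3.11.15, numpy 2.4.6, pandas 2.3.3 and matplotlib 3.10.9 were used.

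Members, their passenger strands, the 3 most alike miRNAs of each, the myoblast-list miRNAs past the unadjusted threshold and the markers are named. The entries of miR-3107, a neighbour of miR-486, and miR-26a of the myoblast list are named as well. These members and lists were chosen with earlier results of these data known. As alternatives, the floor was set to 32, 50 was added to each value, or the filter was dropped. Others were median centring, quantile normalization, cyclic loess, scaling on the other miRNAs, the replicate number as a block, array weights and leaving out each sample. A Student's t-test on log2 values was another, the test that the methods name for the mRNA arrays. Sequences, host genes and neighbours came from RefSeq tables of GRCm38.p6, the build named there. mRNA arrays and Western blots were not used here, and qRT-PCR entered only as the study's reported outcome for miR-181b. Genotype was not checked from the values, since Cfl2 is no miRNA.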

Additional observations from a re-analysis of the deposited data

Results flagged for a closer look

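Samples far from the rest of their genotype were looked for in 24 groups of 6, which were 12 sets of values in each of 2 genotypes. The sets were the 8 members, miR-133a*, miR-486* and the 2 within-sample differences, all on the log2 scale. Dixon's ratio was used, the distance between an extreme sample and the next, divided by the range of the group. At the 5% critical value of 0.625, about 1.2 of 24 groups pass by chance, and 2 passed. For miR-206 in KO, KO1 was above the other 5 mice with a ratio of 0.729 (29194 against 21266 to 23172). For the passenger strand miR-133a* in KO, KO2 was below the other 5 with a ratio of 0.811 (170 against 369 to 442).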

How the results depend on the processing

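The changes of miR-1a, miR-206, miR-133a and miR-133b kept their direction and stayed short of the adjusted threshold under each of 23 alternatives, apart from miR-1a under quantile normalization, which gave 0: it ranked first in 10 of 12 samples and was at rank 2 in WT2 and in KO3, so both genotypes received the same values. With array weights, miR-133a and miR-133b passed the unadjusted threshold, as did 156 of 370 miRNAs; their limma adjusted p was 0.0915 and 0.108. The count of miRNAs past the unadjusted threshold, 72, was 123 with no filter and 156 with array weights. The adjusted count, 5, was 14 with a pseudocount of 50, 1 with no filter, 8 with quantile normalization, 11 with cyclic loess, 115 with array weights, and 3 to 49 when 1 sample was left out: 49 without KO1, 11 without WT4, 8 without KO4, and 3 when WT1, WT3 or KO2 was absent. miR-486* passed the adjusted threshold without KO1 (log2 change -0.93) and with array weights (-0.74, adjusted p = 0.0256).

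The genotype difference of miR-133a minus miR-133b ranged from -0.00540 (without KO1) to 0.0463 (without KO5). The correlation of miR-1a with miR-206 was -0.80 without the 2 farthest samples (permutation p adjusted 0.0132). Its rank call was lost with group means subtracted (permutation p adjusted 0.225), without KO1 (0.0921) and after cyclic loess (0.114). The correlation of miR-206 with miR-133a turned to 0.32 without the 2 farthest samples, 0.31 without KO1, 0.00992 after cyclic loess and 0.0922 after scaling on the other miRNAs, and that with miR-133b to 0.30, 0.28 and 0.00547 under the first, second and last of these. The cause was not tested.

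With the replicate number as a block (replicate block), the unadjusted count was 89 and the adjusted count 4. The 4 changes were the same, with adjusted p from 0.443 to 0.850. The deviations of same-numbered samples correlated with r from -0.453 to 0.594, and 2 of 6 WT samples correlated best with their own number, so the numbers were not shown to pair the mice. The intensities of miR-208a, miR-208b and miR-499 were too low to limit a change.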
